A study of Mus musculus with 40 samples.

Results

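The ADAM, ADAMTS, and ADAMTS-like genes were followed in mouse liver. Genes of the deposited table were taken by symbol (Adam, Adamts, or Adamtsl followed by a number), and those with at least 10 counts in at least 3 of the 38 usable libraries were kept. This gave 34 of the 51 matching genes, out of 55487 genes in the table: 13 ADAM, 16 ADAMTS, and 5 ADAMTS-like genes. The 17 genes under the limit were Adam2, Adam3, Adam5, Adam7, Adam18, Adam20, Adam24, Adam25, Adam28, Adam29, Adam30, Adam32, Adam34, Adam39, Adamts18, Adamts19, and Adamts20, none of which exceeded 22 counts in any library.

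Whole livers of female mice that lack Nampt in hepatocytes (HNKO) were compared with those of WT females after 3, 6, 12, or 21 days on a purified diet (PD). Nampt makes a precursor of NAD+, and in HNKO mice (Nampt fl/fl, Alb-Cre) the Alb promoter directs Cre to hepatocytes, so that the other cells of the liver keep Nampt. The WT mice were floxed littermates, and both genotypes had the C57BL/6JBomTac background, ate the same diet, and were 9 weeks old when feeding began per the methods of the study, while the sample labels list the feeding days as the age. The numbers of libraries, each from 1 mouse, were 5, 4, 5, and 5 for WT and 5, 5, 6, and 3 for HNKO at days 3, 6, 12, and 21.

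ADAM proteins are membrane-anchored metalloproteinases, and the active ones, the sheddases, cut growth factors, cytokines, and receptors off the cell surface. ADAMTS proteins are secreted and work in the extracellular matrix, where they trim procollagen, cleave proteoglycans such as versican, or cut von Willebrand factor. ADAMTS-like proteins resemble them but lack the protease domain and bind to the matrix, and in liver much of this family is made by stellate cells and other nonparenchymal cells.

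Total counts ranged from 16151037 to 64181492 per library (median 26466478.5). Levels are given as CPM, counts relative to a library size that was scaled by TMM. Nampt, the deleted gene, was below every WT library of its day in 18 of 19 HNKO libraries, and the exception, the library labelled HNKO 7 of day 6, held 82.0 CPM against 63.7 to 155 CPM in the 4 WT libraries. The log2 fold change of Nampt was between -0.93 and -0.69 over the 4 days, with an adjusted p-value of 0.161 at day 21. HNKO libraries 17 and 18 of day 21 were described as failing quality control and are used only where stated. The hepatocyte markers Alb, Apoa1, Ttr, Cps1, and Tat together held 82000 to 139000 CPM in WT and 53800 to 115000 CPM in HNKO libraries. The median of HNKO was below that of WT at all 4 days (for example 85900 against 116000 CPM at day 3). At day 6 the groups did not overlap (111000 to 123000 CPM in WT and 53800 to 96300 CPM in HNKO), and at the other days they did.

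In WT liver the most abundant members per length of gene were 3 sheddases. Adam9 had a median of 21.5 CPM per kb of exon over the 19 WT libraries, Adam10, which cleaves Notch receptors, had 9.44, and Adam17, the tumor necrosis factor convertase, had 4.89. They were followed by Adamts1, a protease of versican, at 4.29 CPM per kb, by Adam23, a catalytically inactive adhesion protein, at 2.46, and by Adamts13, the von Willebrand factor protease, at 2.43. The interquartile ranges of these first 5 genes did not overlap, whereas those of the next pairs in the order, Adam23 and Adamts13, Adamts13 and Adamts7, and Adamts7 and Adamts6, did. At the low end, Adamtsl3 had 0.0775, Adamts16 had 0.0323, and Adamts17 had 0.029 CPM per kb, and 26 of the 33 pairs of genes next to each other in this order had overlapping interquartile ranges.

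**Figure D1:**
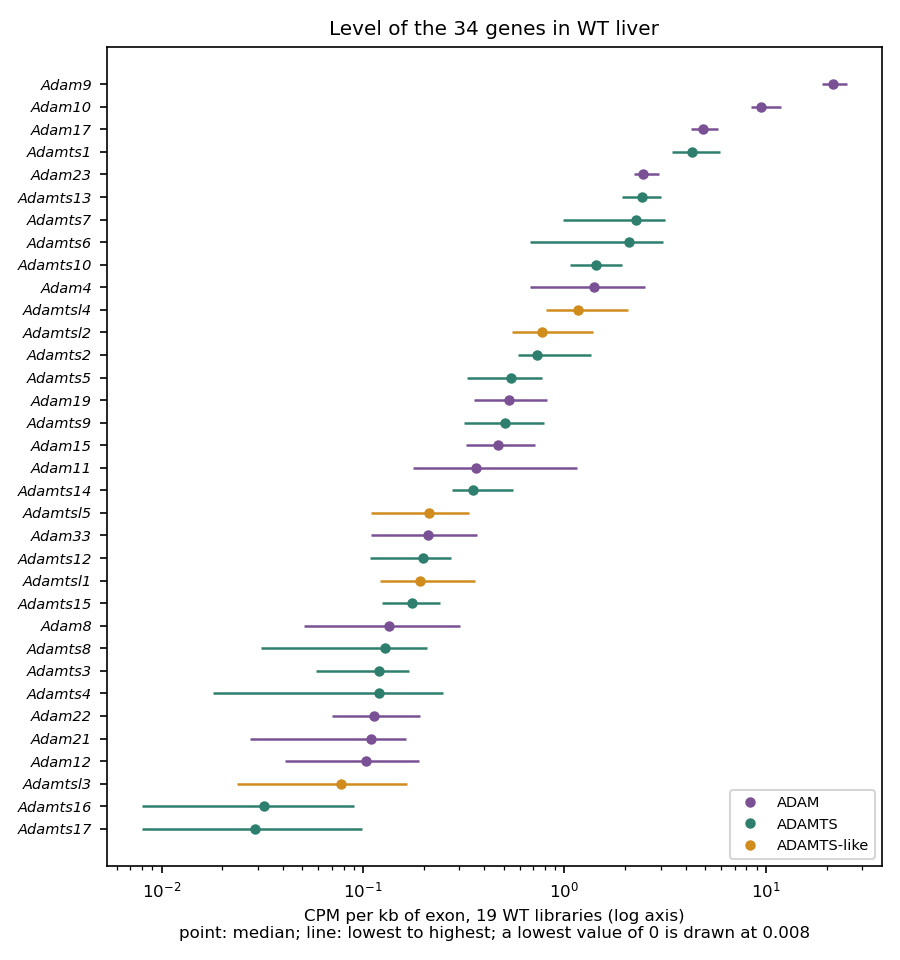
Level of each of the 34 genes in the 19 WT libraries, as CPM per kb of exon on a log axis. Points are medians and lines run from the lowest to the highest library (a lowest value of 0 is drawn at the left end noted under the axis), with Adam9 at the top (21.5) and Adamts17 at the bottom (0.029).

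Most of the members that differed between genotypes were higher in HNKO liver. On day 3, 5 of the 34 genes were called (edgeR's quasi-likelihood test, Benjamini-Hochberg adjusted p under 0.05 over 20297 genes), all higher in HNKO, where 4.66% of all genes were called and 2.95% were called higher and 1.71% lower. At day 6, 16 were called, against 12.8% of all genes, and 15 of them were higher (8.42%) and 1, Adamts13, was lower (4.37%). At day 12, 10 were called, all higher (7.82% of all genes called, 4.56% higher and 3.27% lower). At day 21, 6 were called, all higher (3.12% of all genes called, 2.21% higher and 0.916% lower).

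Averaged over the 4 days, 22 of the 34 genes were called, against 36.4% of all genes, with 21 higher (19.2%) and Adamts13 lower (17.3%). The median log2 fold change of the 34 genes was 0.41, 0.65, 0.32, and 0.41 at days 3, 6, 12, and 21, where the median over all genes tested lay between -0.014 and 0.013. In bulk liver, a change in the number of cells that make a transcript and a change in the transcript per cell cannot be told apart. Without single libraries of the day, the count of called members ranged from 2 to 10 at day 3, from 11 to 17 at day 6, from 5 to 10 at day 12, and from 0 to 8 at day 21. Over the same fits the share of all genes called ranged from 1.59% to 8.24%, from 5.58% to 15%, from 4.21% to 8.66%, and from 0.0627% to 3.45%, and the 11 at day 6 came without HNKO library 29 (5.58%). The 0 at day 21 (0.0627% of all genes) came from leaving out HNKO library 37, which had the highest level of 9 of the 10 most often called members. The 10 at day 3 (8.24% of all genes) came from leaving out HNKO library 22, which had the lowest level of 7 of those 10 members at that day.

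**Figure D2:**
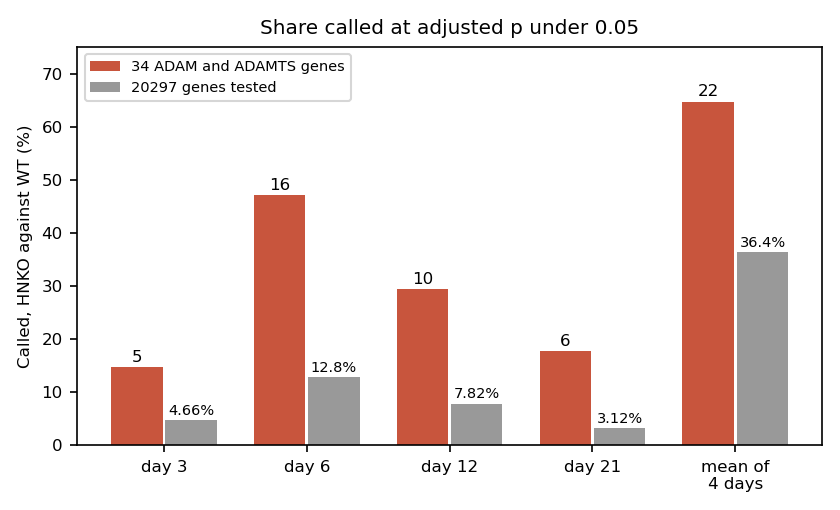
Share of the 34 genes (red bars, with the number of genes above) and of all 20297 genes tested (grey bars, with the percentage above) called between HNKO and WT at each day and in the mean of the 4 days. The counts were 5, 16, 10, 6, and 22 of 34 genes.

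**Figure D3:**
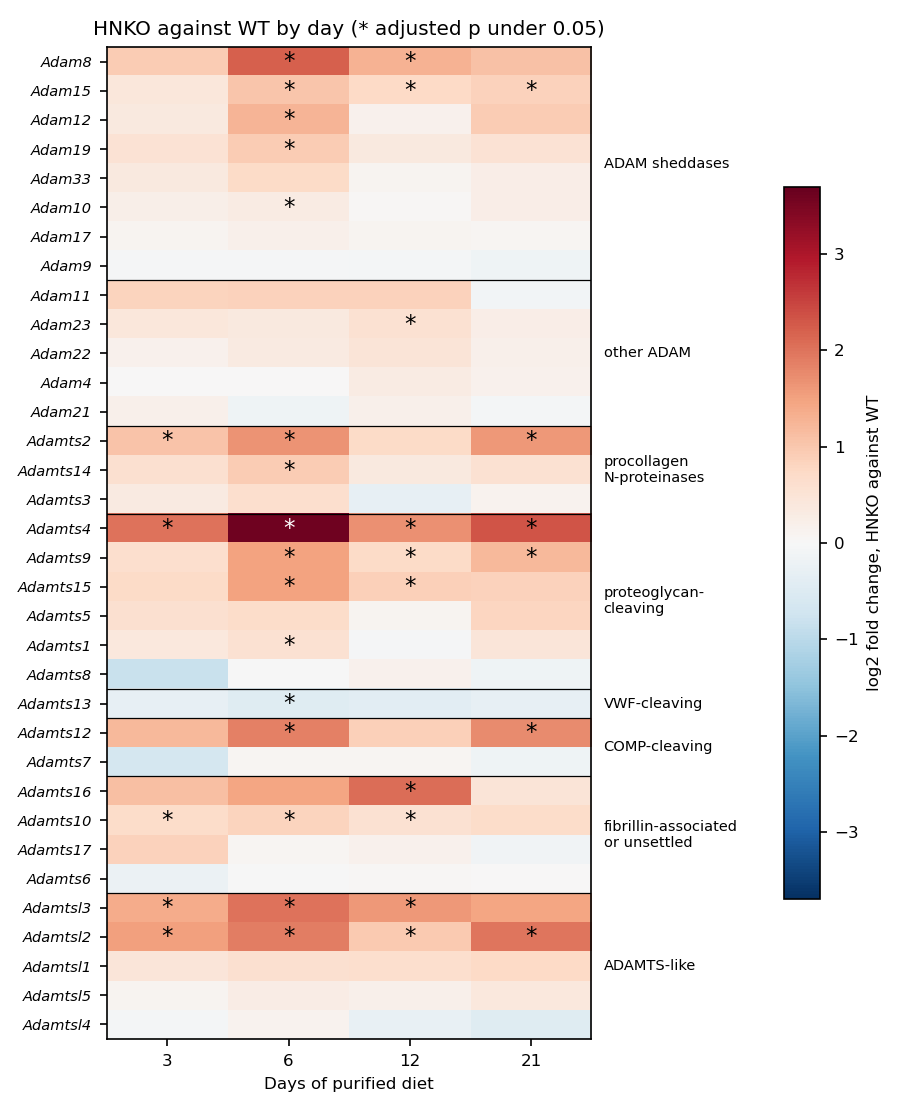
Log2 fold change of HNKO against WT for the 34 genes (rows, grouped by role) at the 4 days (columns), with an asterisk where the adjusted p-value was under 0.05. The proteoglycan-cleaving Adamts4 reached 3.61 at day 6, and Adamts13 was below 0 at all 4 days.

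Of the 8 sheddases, 5 rose at day 6 (Adam8, Adam15, Adam12, Adam19, and Adam10), 2 at day 12, and 1 at day 21, and none was called at day 3. Of all genes, 8.42%, 4.56%, and 2.21% were called higher at days 6, 12, and 21, and counts in the groups of genes that follow are to be read against these shares and the 2.95% of day 3. Adam8, the sheddase of leukocytes, held 0.52, 0.548, 0.77, and 1.07 CPM in the 4 WT libraries of day 6 and 1.46, 2.81, 3.24, 3.28, and 5.92 CPM in the 5 HNKO libraries. The groups did not overlap, and HNKO library 29 was the highest. The log2 fold change of Adam8 was 2.21 ± 0.41 (SE) with an adjusted p-value of 0.000576. At day 12 it ranged from 0.335 to 0.912 CPM in WT (median 0.622) and from 0.641 to 2.32 CPM in HNKO (median 1.16), and the groups overlapped (log2 fold change 1.30 ± 0.37, adjusted p = 0.0285). At days 3 and 21 the log2 fold changes were 0.94 ± 0.38 and 1.07 ± 0.43 and were not called (adjusted p = 0.14 and 0.163).

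Adam15, a sheddase with an integrin-binding domain and with 1263 exon bases over an antisense gene (median 1.5 counts), ranged from 2.1 to 3.43 CPM in WT and from 3.23 to 8.11 CPM in HNKO at day 6, where only the lowest HNKO library lay within the WT range. Its log2 fold changes were 1.04 ± 0.23, 0.74 ± 0.20, and 0.85 ± 0.23 at days 6, 12, and 21 (adjusted p = 0.00243, 0.0204, and 0.0394) and 0.41 ± 0.21 at day 3 (adjusted p = 0.249). At day 21 all 3 HNKO libraries (3.4, 4.53, and 6.36 CPM) were above the WT maximum of 3.09 CPM. Leaving out any of 6 libraries of day 21 (WT 19, 20, 21, and 41 and HNKO 37 and 40) ended that call, with adjusted p-values from 0.0567 to 0.543. The Adam8 call of day 12 was lost without HNKO 11 or 12 or WT 15 or 33 (adjusted p = 0.0682 to 0.0823), and that of Adam15 at day 12 without HNKO 13 or WT 15 or 33 (0.0504 to 0.0581).

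Adam19, Adam12, and Adam10 were called at day 6 and at no other day, although all HNKO libraries of each lay above all WT libraries at day 21, and the effect was not shown to differ between days (interaction, adjusted p = 1.0). Adam19, which sheds neuregulins, was above every WT library in all 5 HNKO libraries (4.81 to 9.62 CPM against 2.52 to 4.31 CPM; log2 fold change 0.93 ± 0.23, adjusted p = 0.00667), and its values at days 3, 12, and 21 were 0.53, 0.35, and 0.53. Adam12, a sheddase of mesenchymal cells, had a log2 fold change of 1.26 ± 0.42 (adjusted p = 0.0395) with overlapping groups (0.434 to 1.69 CPM in WT and 1.23 to 5.38 CPM in HNKO), against 0.35, 0.15, and 0.93 at the other days. Adam10 changed little in size but with small errors, by 0.31 ± 0.08 at day 6 (adjusted p = 0.0127; 41.7 to 44.4 CPM in WT and 47.6 to 62.1 CPM in HNKO), and by 0.22, 0.04, and 0.25 at days 3, 12, and 21. The Adam10 call was lost without HNKO 29 (adjusted p = 0.0531), and the Adam12 call without HNKO 7 or 29 or WT 8, 10, or 27 (0.0547 to 0.292).

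Averaged over the days, 6 of the 8 sheddases were higher in HNKO, as were 19.2% of all genes. Besides the genes above, Adam33 was called only there (0.36 ± 0.12, adjusted p = 0.0215; 0.37, 0.72, 0.09, and 0.24 by day). The most abundant sheddase, Adam9, and the tumor necrosis factor convertase Adam17 were not called in any comparison, with averaged log2 fold changes of -0.08 ± 0.03 (adjusted p = 0.0759) and 0.11 ± 0.05 (adjusted p = 0.0731), and daily values between -0.16 and 0.19. Part of the exons of Adam17 (311 bases) lies over Iah1 on the opposite strand, and whether the authors counted reads by strand is not given in the sources used here.

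Among the 5 other ADAM genes, which encode proteins without protease activity or are best known from brain and testis, Adam23 rose at day 12. It ranged from 40.5 to 47.5 CPM in WT and from 55.6 to 73.3 CPM in HNKO without overlap (log2 fold change 0.56 ± 0.12, adjusted p = 0.00665), and the call held whichever library was left out. At days 3, 6, and 21 its log2 fold changes were 0.41, 0.36, and 0.25 and did not pass (adjusted p = 0.0567, 0.0794, and 0.395). Adam11 was called only in the average (0.61 ± 0.21, adjusted p = 0.0241; 0.82, 0.86, 0.86, and -0.11 by day), and not without HNKO 7 (0.46 at the lowest) or HNKO 37, with adjusted p-values of 0.0602 and 0.0706. Adam22, Adam4, and Adam21 were not called, with log2 fold changes between -0.16 and 0.49. Of the 51-base stretches of Adam4, 16.95% also occur in other transcripts, so that its counts are uncertain.

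The procollagen N-proteinases remove the amino-terminal propeptide of fibrillar collagens. Of the 3 genes, Adamts2 rose at days 3, 6, and 21, Adamts14 rose at day 6, and Adamts3, which also processes the growth factor VEGF-C, was not called (-0.30 to 0.63). At day 21, Adamts2 held 5.65, 5.72, 7.02, 7.37, and 7.6 CPM in WT and 10.6, 19.6, and 30.7 CPM in HNKO, and at day 6 it held 5.49, 5.51, 6.33, and 6.4 CPM in WT and 11.9, 12.1, 17.2, 24.3, and 28.5 CPM in HNKO. The groups were apart at both days. At day 3, 4 of 5 HNKO libraries exceeded the WT maximum of 10.2 CPM, and HNKO library 22, at 6.65 CPM, was below all WT libraries.

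The log2 fold changes of Adamts2 were 1.06 ± 0.31, 1.66 ± 0.35, 0.70 ± 0.30, and 1.61 ± 0.35 at days 3, 6, 12, and 21 (adjusted p = 0.0437, 0.00166, 0.146, and 0.0103). The day 3 call was lost without HNKO 2, 3, or 23 or WT 5, 24, 25, or 26 (adjusted p = 0.0563 to 0.174), and the day 21 call without HNKO 37 (1.2, adjusted p = 0.322). Adamts14 had 0.94 ± 0.30 at day 6 (adjusted p = 0.0347; 1.56 to 1.91 CPM in WT and 1.8 to 5.06 CPM in HNKO) and 0.58, 0.35, and 0.57 at the other days. Its call was lost without HNKO 7, 29, or 30 or without any of the 4 WT libraries of the day, with adjusted p-values from 0.0552 to 0.155.

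Among the groups, the proteoglycan-cleaving genes had the widest range of log2 fold changes at day 6 (-0.01 to 3.61). Of these 6 genes, the numbers that rose at days 3, 6, 12, and 21 were 1, 4, 3, and 2 (2.95%, 8.42%, 4.56%, and 2.21% of all genes), and the median log2 fold change was 1.08 at day 6 against -0.014 over all genes. Adamts4, a protease of aggrecan and versican that is induced in inflamed tissue, was higher at all 4 days. At day 3 it held 0.584, 0.591, 0.654, 0.74, and 1.2 CPM in WT and 1.43, 2.16, 3.24, 3.4, and 5.17 CPM in HNKO. At day 6 it held 0.0867, 0.257, 0.463, and 0.877 CPM in WT and 2.36, 2.79, 2.9, 6.94, and 10.6 CPM in HNKO. No HNKO library overlapped with WT at either day. At day 12 it ranged from 0.239 to 0.699 CPM in WT (median 0.579) and from 0.718 to 2.96 CPM in HNKO (median 1.77), so that the lowest HNKO library was just above the highest WT library. At day 21 it held 0.351, 0.392, 0.442, 0.471, and 0.71 CPM in WT and 1.24, 1.54, and 4.33 CPM in HNKO.

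The log2 fold changes of Adamts4 were 2.02 ± 0.47, 3.61 ± 0.56, 1.69 ± 0.47, and 2.32 ± 0.53 (adjusted p = 0.0117, 8.36e-05, 0.0236, and 0.0138). The call was lost at day 3 without HNKO 23 (1.76, adjusted p = 0.052), at day 12 without HNKO 11 or 12 or WT 15 or 16 (0.0515 to 0.0558), and at day 21 without HNKO 37 (1.57, adjusted p = 0.43). These values rest on few reads, with a median of 25.5 counts per library.

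Adamts9, a versican-cleaving protease with 1381 exon bases over a gene of the opposite strand (median 16.5 counts), ranged from 4.9 to 7.41 CPM in WT and from 11.4 to 29.7 CPM in HNKO at day 6, without overlap. The log2 fold changes were 0.61 ± 0.22, 1.49 ± 0.25, 0.70 ± 0.21, and 1.21 ± 0.25 (adjusted p = 0.0961, 0.00018, 0.0388, and 0.00661), so that Adamts9 was called at days 6, 12, and 21. The groups were also apart at day 21 (6.47, 6.95, 8.36, 8.45, and 9.28 CPM in WT and 15.3, 15.5, and 23.9 CPM in HNKO). The day 21 call was lost without HNKO 37 (0.98, adjusted p = 0.234), and the day 12 call without HNKO 11, 12, or 13 or WT 15, 16, 33, or 34 (0.0583 to 0.0964).

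Adamts15, also a protease of versican, held 1.28, 1.35, 1.56, and 1.86 CPM in WT and 3.6, 3.87, 4.54, 4.57, and 4.72 CPM in HNKO at day 6, without overlap. It rose at days 6 and 12 (1.49 ± 0.26 and 0.88 ± 0.22, adjusted p = 0.000289 and 0.0154), both in every fit that left out 1 library, and its values of 0.70 ± 0.23 and 0.85 ± 0.26 at days 3 and 21 did not pass (adjusted p = 0.0703 and 0.0607). Its neighbor Adamts8, which lies 20.1 kb away on chromosome 9, was not called (-0.81, -0.01, 0.17, and -0.15 by day). On chromosome 16, Adamts1 and Adamts5 lie 53.1 kb apart and were both higher in the average (0.34 ± 0.09 and 0.55 ± 0.13, adjusted p = 0.00202 and 0.00113). By day, Adamts1 had 0.40, 0.57, -0.04, and 0.44, called at day 6 (adjusted p = 0.0292) but not without WT 8, 10, or 28 or HNKO 29 (0.0568 to 0.216), and Adamts5 had 0.59, 0.68, 0.11, and 0.80, never called.

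Cartilage oligomeric matrix protein is cut by Adamts7 and Adamts12, and Adamts12 was the one called. It rose at days 6 and 21, when its groups did not overlap (1.18 to 2.29 CPM in WT and 3.32 to 10.5 CPM in HNKO at day 6; 1.36, 1.86, 1.88, 1.93, and 2.44 CPM in WT and 4.32, 4.56, and 10.2 CPM in HNKO at day 21). Its log2 fold changes were 1.19 ± 0.38, 1.86 ± 0.42, 0.87 ± 0.36, and 1.75 ± 0.42 (adjusted p = 0.0586, 0.00307, 0.128, and 0.0179), and 1.24 without HNKO 37 at day 21 (adjusted p = 0.43). Adamts7 had -0.66 ± 0.20 at day 3 (adjusted p = 0.0509), 0.07 and 0.06 at days 6 and 12, and -0.16 at day 21. Without HNKO 22, Adamts7 was called lower at day 3 (-0.75 ± 0.22, adjusted p = 0.0281). The exons of Adamts7 share 122 bases with Tbc1d2b on the opposite strand (median 1711.5 counts), so that its values carry the same limit as those of Adam17.

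Of the 4 ADAMTS genes that act on fibrillin or have no settled substrate, Adamts10, whose product binds fibrillin microfibrils, rose at days 3, 6, and 12. It ranged from 11.6 to 12.4 CPM in WT and from 15.9 to 28.7 CPM in HNKO at day 6 and from 8.73 to 13.3 CPM in WT and from 13.9 to 21.2 CPM in HNKO at day 12, apart at both days. The log2 fold changes were 0.69 ± 0.18, 0.82 ± 0.19, 0.56 ± 0.17, and 0.67 ± 0.20 (adjusted p = 0.0205, 0.00394, 0.0379, and 0.0532), the most even series of the genes called at 2 or more days. The day 3 call was lost without HNKO 2 or 23 or WT 5, 24, or 25 (0.0555 to 0.0887), and the day 12 call without HNKO 11, 12, 13, or 32 or WT 15, 33, or 34 (0.0528 to 0.0978).

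Adamts16 was called at day 12 (2.06 ± 0.52, adjusted p = 0.0147), with 1.10, 1.45, and 0.49 at days 3, 6, and 21. It is a gene of very few reads, with at least 10 counts in 3 of 19 WT and 13 of 19 HNKO libraries. In WT its level also differed between days (adjusted p = 0.0446), from 0 to 0.253 CPM at days 6 and 12 and from 0.196 to 0.618 CPM at days 3 and 21. Adamts6 and Adamts17 were not called, with log2 fold changes between -0.21 and 0.86.

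The ADAMTS-like proteins hold no protease. Of the 5 genes, Adamtsl2, whose product binds fibrillin and the latent TGF-beta binding protein and is mutated in geleophysic dysplasia, was called at all 4 days, as was Adamts4. At day 3 it held 5.83, 6.14, 9.12, 9.53, and 11.1 CPM in WT and 12.1, 13, 20.6, 34.8, and 39.2 CPM in HNKO. At day 6 it held 4.68, 4.68, 4.72, and 5.55 CPM in WT and 11.9, 11.9, 18.6, 20.8, and 27.9 CPM in HNKO. At day 12 it ranged from 7.42 to 8.34 CPM in WT (median 7.75) and from 9.15 to 19.7 CPM in HNKO (median 15.7). HNKO lay above WT at each of these days, as it did at day 21, with 4.4, 4.61, 6.15, 6.15, and 6.63 CPM in WT and 11.9, 20.5, and 33.7 CPM in HNKO.

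The log2 fold changes of Adamtsl2 were 1.51 ± 0.28, 1.89 ± 0.31, 0.97 ± 0.27, and 1.99 ± 0.31 (adjusted p = 0.00287, 0.000192, 0.0245, and 0.000718), and 1.59 ± 0.15 in the average (adjusted p = 9.9e-10). The calls of days 3 and 6 held in every fit that left out 1 library, the call of day 12 was lost without HNKO 13 (0.88, adjusted p = 0.0601), and that of day 21 without HNKO 37 (1.56, adjusted p = 0.0551). Adamtsl3, a matrix protein, rose at days 3, 6, and 12 (1.36 ± 0.40, 2.0 ± 0.46, and 1.6 ± 0.40, adjusted p = 0.0454, 0.00353, and 0.0131) and had 1.47 ± 0.44 at day 21 (adjusted p = 0.0561). It was among the least abundant members, between 0.182 and 1.28 CPM in WT and 0.864 and 3.34 CPM in HNKO, with groups apart at days 12 and 21 and overlapping at days 3 and 6. Its day 3 call was lost without HNKO 2, 3, or 23 or WT 1, 5, 24, or 25 (0.0565 to 0.174). Adamtsl1 was called only in the average (0.60 ± 0.16, adjusted p = 0.00363; 0.44, 0.58, 0.62, and 0.75 by day), and Adamtsl4 and Adamtsl5 were not called (-0.44 to 0.38).

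Adamts13 and Adamtsl2 lie next to each other in this family on chromosome 2, on the plus strand and 69.8 kb apart, and moved in opposite directions. Adamts13 (chr2:26973416-27009628, GRCm38) limits clotting by cutting von Willebrand factor, and in liver it is known to come from stellate cells. At day 6 it ranged from 10.1 to 12.1 CPM in WT and from 7.2 to 11 CPM in HNKO, with 4 of 5 HNKO libraries below all WT libraries. Its log2 fold changes were -0.29 ± 0.13, -0.44 ± 0.14, -0.38 ± 0.13, and -0.31 ± 0.15 (adjusted p = 0.202, 0.0366, 0.057, and 0.29) and -0.36 ± 0.07 in the average (adjusted p = 0.000145). The day 6 call was lost without HNKO 6, 7, or 29 or WT 10, 27, or 28 (0.0688 to 0.149), while the average kept its call without any 1 library. Of its 51-base stretches, 3.59% occur in other transcripts.

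Promoter sequences from RefSeq (GRCm38.p6) were matched to 20 of the 34 genes, with 22 entries. The 250 bases before the start of Adamtsl2 and Adamts13, neighbors that moved apart, and of Adam8, the sheddase with the largest fold change, are shown 5′ to 3′ on the strand of the gene. Capitals mark the letters of 4 motifs searched on both strands: the TATA box TATAAA, the GC box GGGCGG, the AP-1 site TGANTCA, and the TEAD site GGAATG.
Adamtsl2, chr2:27079129-27079378, plus strand: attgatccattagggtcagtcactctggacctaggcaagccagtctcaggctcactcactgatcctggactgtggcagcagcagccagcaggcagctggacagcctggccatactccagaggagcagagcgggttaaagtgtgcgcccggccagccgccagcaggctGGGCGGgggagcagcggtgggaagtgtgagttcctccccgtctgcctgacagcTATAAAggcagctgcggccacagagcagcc
Adamts13, chr2:26973166-26973415, plus strand: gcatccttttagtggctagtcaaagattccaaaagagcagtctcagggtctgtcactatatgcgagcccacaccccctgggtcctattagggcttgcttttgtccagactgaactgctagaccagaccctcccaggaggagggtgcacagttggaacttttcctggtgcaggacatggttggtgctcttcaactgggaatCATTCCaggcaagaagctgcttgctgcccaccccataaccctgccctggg
Adam8, chr7:139992563-139992812, minus strand: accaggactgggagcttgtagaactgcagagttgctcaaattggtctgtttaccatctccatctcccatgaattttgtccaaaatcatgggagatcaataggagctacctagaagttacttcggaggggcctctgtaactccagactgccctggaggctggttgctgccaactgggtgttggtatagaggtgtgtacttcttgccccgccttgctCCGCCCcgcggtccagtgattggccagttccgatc

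The Adamtsl2 window had 62.8% G and C and 8 CpG, a TATA box from -30 to -25, and a GC box from -83 to -78. The Adamts13 window had 54.0% and 1 CpG, with neither of these motifs and a TEAD motif from -50 to -45 read on the other strand. The Adam8 window had 52.8% and 6 CpG, and a GC box from -35 to -30 on the other strand. Over all 32851 RefSeq promoter entries, 12.4% held a TATA box, 32.7% a GC box, 6.7% an AP-1 motif, and 12.6% a TEAD motif, against 9.1%, 59.1%, 4.5%, and 9.1% of the 22 entries of the family. Adamtsl2 and Adamts1 were the genes of the family with TATAAA, and Adam19 the gene with TGANTCA. Such matches describe the letters of these windows, and no binding was measured.

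**Figure D4:**
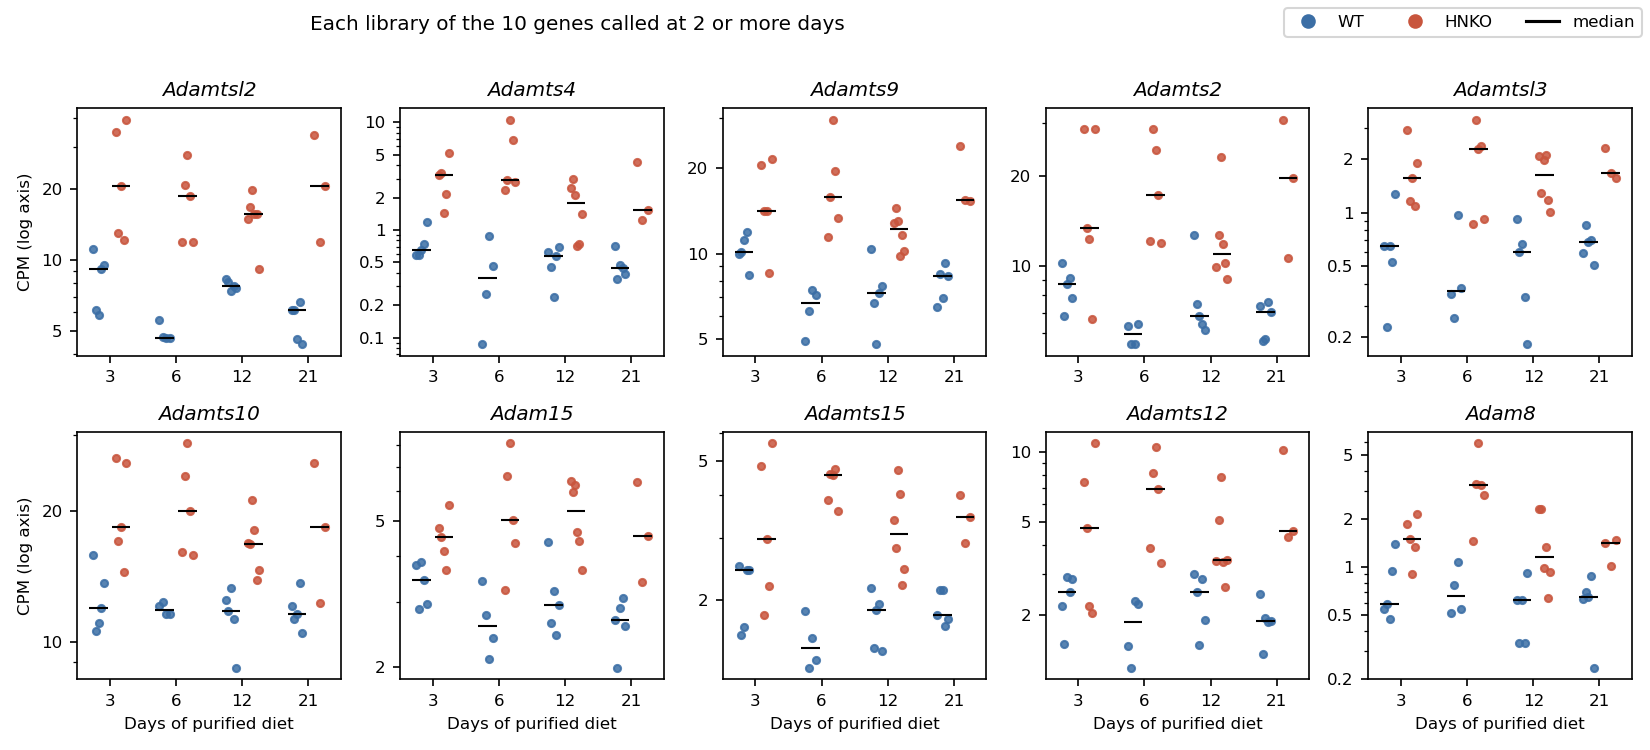
CPM of every library (points) on log axes for the 10 genes called at 2 or more days, with black lines at the median of each group of 3 to 6 mice. All HNKO libraries of Adamtsl2 and Adamts4 were above all WT libraries at each of the 4 days.

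Groups that did not overlap were found for 2 of the 34 genes at day 3 (all HNKO libraries above all WT libraries, 2.31% of all genes), 10 at day 6 (8.08%), 6 at day 12 (2.65%), and 13 at day 21 (7.25%), when HNKO had 3 libraries. At day 21, Adamtsl4 alone was below WT in all HNKO libraries (3.44 to 5.05 against 5.14 to 6.83 CPM, adjusted p = 0.21; 6.7% of all genes). No member passed the interaction test of genotype by day (edgeR, adjusted p = 1.0 for every member), and neither did any gene of the table (0.0%). At an unadjusted p-value under 0.05 there were 1 member, Adamts9, and 4.76% of all genes. The day 6 peaks in the fold changes are therefore not shown to differ from the other days. Within HNKO, Adam8 and Adam4 differed between days (adjusted p = 0.0199 and 0.0285; 7.9% of all genes), and within WT, Adamts16 did (5.84%).

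The sample labels carry library numbers from 1 to 21 and from 22 to 41, and each day held both ranges. Of the 18 genes called at 1 or more days, 15 were higher in HNKO in all 7 comparisons of genotype within a day and a number range, Adam12 and Adamts1 were higher in 6 of 7 (lowest -0.33 and -0.19 on the log2 scale), and Adamts13 was lower in all 7 (-0.58 to -0.17). These genes were called from the same libraries, so that the counts describe them and are no separate support. With the number range as a covariate, 5, 16, 11, and 8 members were called at days 3, 6, 12, and 21, of which 1 was lower at each of days 3, 6, and 12 (5.77%, 14.8%, 9.85%, and 4.0% of all genes).

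The proteins that hold these proteases in check were read beside them, from lists of known inhibitors, partners, and substrates. Counts over these lists are to be read against the shares of all genes called higher (2.95%, 8.42%, 4.56%, and 2.21% at days 3, 6, 12, and 21) and lower (1.71%, 4.37%, 3.27%, and 0.916%). Calls of the listed genes are given from the main fit only, not from fits that left out 1 library. At day 21 the share of all genes called was 3.12% in that fit and 0.0627% without HNKO library 37. Of 6 inhibitors tested, 1, 3, 2, and 1 were higher at days 3, 6, 12, and 21, and none was lower. Timp1, an inhibitor of metalloproteinases made in injured liver, had log2 fold changes of 4.39 ± 0.73, 6.31 ± 0.90, 3.47 ± 0.70, and 3.80 ± 0.74 (adjusted p = 0.00109, 2.96e-05, 0.00369, and 0.00444), at each day larger than those of all 34 genes at that day. The inhibitor of several ADAM and ADAMTS proteases, Timp3, was not called (0.14 to 0.42), nor was Reck, a membrane inhibitor (-0.38 to -0.02), both named after their values were seen.

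Of 12 partners and activating convertases of the sheddases, 2 were higher at day 3, 3 were higher and 2 lower at day 6, 4 were higher and 1 lower at day 12, and 1 was lower at day 21. Rhbdf1, which carries Adam17 to the cell surface, had 0.62, 0.59, 0.60, and 0.66 (adjusted p = 0.0371, 0.0367, 0.0261, and 0.058). Tspan17, a tetraspanin partner of Adam10, had 0.80, 1.06, 0.63, and 0.38 (0.0174, 0.00122, 0.0339, and 0.377). Furin, the convertase that activates proproteins of the family, went the other way, with -0.16, -0.33, -0.38, and -0.73 (0.434, 0.0484, 0.0229, and 0.0021).

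Of 25 sheddase substrates, 4, 11, 4, and 3 were higher at days 3, 6, 12, and 21, none was lower at any day, and 14 were higher and 1 lower in the average, where 19.2% of all genes were higher and 17.3% lower. Nrg1, a neuregulin cut by Adam19, had 2.33, 2.33, 1.6, and 2.57 (adjusted p = 0.0119, 0.00905, 0.049, and 0.0135), and Cx3cl1, a membrane chemokine released by Adam10 and Adam17, had 1.44, 1.95, 1.41, and 1.47 (0.0127, 0.000922, 0.00858, and 0.0246).

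Of 22 listed substrates and microfibril partners of the ADAMTS proteins, 17 were tested. Acan (aggrecan), Bcan, Ncan, Comp (cartilage oligomeric matrix protein), and Col2a1 had at most 14 counts in any library and were not tested. Of the 17, 8, 12, 7, and 8 were higher at days 3, 6, 12, and 21, and 1, Reln, was lower at day 12 (-0.40). Versican (Vcan), the substrate of Adamts1, Adamts4, Adamts9, and Adamts15, had 2.46 ± 0.55, 3.61 ± 0.64, 1.84 ± 0.52, and 3.09 ± 0.61 (adjusted p = 0.00916, 0.000354, 0.0278, and 0.00495). The fibrillins were also higher at all days, Fbn1 by 0.92, 1.46, 0.73, and 1.40 (0.0257, 0.000527, 0.0486, and 0.00483) and Fbn2 by 3.71, 4.37, 2.83, and 3.79 (0.00384, 0.00275, 0.0151, and 0.0095). So were Thbs1, a thrombospondin, with 1.52, 2.98, 1.25, and 1.91 (0.02, 5.44e-05, 0.0312, and 0.012), and the collagen chain Col1a1, with 1.84, 4.02, 2.03, and 3.07 (0.046, 0.000197, 0.02, and 0.00526). Col1a2 (1.09, 2.46, 1.31, and 1.88), Col3a1 (1.56, 2.66, 1.26, and 2.12), and the proteoglycan Lum (1.42, 1.30, 0.81, and 1.59) were called at 3 days each, missing at day 3 for Col1a2 (adjusted p = 0.108) and at day 12 for Col3a1 (0.0684) and Lum (0.112). Von Willebrand factor (Vwf), the substrate of Adamts13, had 0.22, 0.42, 0.60, and 0.37 and was called at day 12 (adjusted p = 0.038).

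Some markers of stellate cells and myofibroblasts were also higher in HNKO. Of 10 markers, 4, 5, 2, and 4 were higher at days 3, 6, 12, and 21, and 1, Reln, was lower at day 12, while Acta2 and Dcn were called at no day and Lrat, which esterifies retinol for storage in stellate cells, in no comparison (-0.38 to 0.02). Of the 10, 5 also stand in the list of ADAMTS substrates. Their summed level was 586 to 635 CPM in WT and 451 to 1360 CPM in HNKO at day 3, 519 to 565 and 683 to 1320 CPM at day 6, 539 to 665 and 526 to 900 CPM at day 12, and 514 to 607 and 592 to 1230 CPM at day 21. The summed level of the 10 protease genes called at 2 or more days was 41 to 57.3 CPM in WT and 54.3 to 147 CPM in HNKO at day 3, 35.4 to 38 and 67.1 to 153 CPM at day 6, 38.2 to 55.6 and 55.9 to 101 CPM at day 12, and 37.6 to 45.8 and 64.8 to 143 CPM at day 21. At each of the 4 days the HNKO library with the highest protease sum also had the highest marker sum (libraries 23, 29, 13, and 37), and the library with the lowest protease sum had the lowest marker sum (22, 6, 36, and 38). The 10 protease genes were chosen by their calls in these libraries, so that the distance of their sum from WT follows from the choice and cannot be set against that of the markers. The part of these cells in the protease values was not tested.

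**Figure D5:**
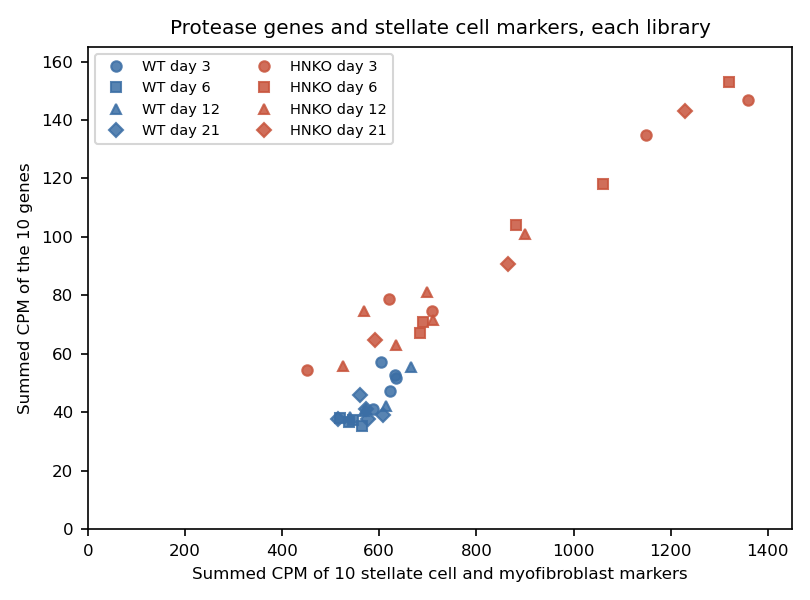
Summed CPM of the 10 protease genes called at 2 or more days (vertical axis) against the summed CPM of 10 stellate cell and myofibroblast markers (horizontal axis) in each of the 38 libraries, by genotype and day. WT libraries lie between 35.4 and 57.3 on the vertical axis, and the highest HNKO libraries of days 3, 6, and 21 reach 147, 153, and 143.

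Counts of other markers are read against the same shares. Of 6 cholangiocyte and oval cell markers, 5, 5, 4, and 3 were higher by day, and their sum was 34.3 to 48.8 CPM in WT and 107 to 754 CPM in HNKO over all days. Of 9 macrophage markers, 1, 4, 2, and 2 were higher, with sums of 262 to 654 CPM in WT and 342 to 998 CPM in HNKO. All 3 tested neutrophil markers were higher at day 6, when Adam8 had its largest fold change (sums of 0.8 to 1.43 CPM in WT and 5.64 to 23.4 CPM in HNKO), and Ly6g, Mpo, and Elane had at most 7 counts in any library. HNKO library 29, with the highest Adam8 level of day 6, also had the highest sum of S100a8 and S100a9 (22.0 CPM). That library was the highest of its group in 7 of the 10 protease genes called at 2 or more days. Library 11 led its group in both at day 12 (2.32 and 5.27 CPM). At day 3 Adam8 was highest in library 23 and the sum in library 3. At day 21 Adam8 was highest in library 40 (1.48 CPM), where the sum was the lowest of the 3 HNKO libraries (1.48 CPM). Of 5 hepatocyte markers, 2 were lower at day 6, of 7 endothelial markers 2 were lower at days 6 and 12, and of 7 lymphocyte markers 1 was lower at day 3, where 4.37%, 3.27%, and 1.71% of all genes were called lower at days 6, 12, and 3. The part of these cells in the results was not tested.

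With HNKO libraries 17 and 18 included, 1, 10, 4, and 9 members were called at days 3, 6, 12, and 21, and 20 in the average, while the share of all genes called was then 1.66%, 6.61%, 3.12%, 6.76%, and 29.9%. Library 17 held 0 counts of Adamts4, 0 of Adam8, and 1 of Adam15, where library 18 held 46, 41, and 82. Of Adam33, library 17 held 116 counts (9.01 CPM), against 0.785 to 1.55 CPM in WT of that day. Adam33 then had a log2 fold change of 1.41 ± 0.37 at day 21 (adjusted p = 0.0175), where it was 0.24 ± 0.27 without them. Adamtsl2 (1.76 ± 0.29, adjusted p = 0.000507), Adamts4 (2.05 ± 0.57, 0.0257), Adamts9 (1.2 ± 0.22, 0.00146), Adamts2 (1.54 ± 0.31, 0.00344), and Adamts12 (1.68 ± 0.37, 0.00656) were called at day 21 with and without these libraries. Adam15 was not called with them (0.54 ± 0.35, adjusted p = 0.371), where it was 0.85 ± 0.23 without them (0.0394).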

How the data were processed

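RNA of 40 whole livers was sequenced by the authors as 51-bp paired-end reads after rRNA depletion, aligned to GRCm38 with STAR 2.7.2b, and counted on GENCODE genes with featureCounts 1.6.4, per the methods and the submitters' processing notes. The deposited file holds raw counts per gene without normalization. Strand settings of the counting are not given in the sources used here. Genotype, day, and library number came from the sample labels, and 38 libraries were analyzed. The members and gene lists were chosen with earlier results of these data known.

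Genes were filtered with edgeR's filterByExpr (minimum count 10, minimum total 15, minimum proportion 0.7), leaving 20297 genes and 99.937% of the counts, and all 34 members passed. TMM scaling was followed by a fit with a mean for each of the 8 groups (edgeR 4.0.16, quasi-likelihood, legacy dispersion, R 4.3.3), so that all groups shared 1 estimate of the spread. P-values were adjusted by Benjamini-Hochberg over the tested genes of each comparison and called under 0.05. SEs are those implied by the test statistic. The scripts were tested on simulated data. Positions, exon lengths, and overlaps came from GENCODE M21 (GRCm38), where genes are matched by identifier. Each of the 4 days has its own WT group, and the average reuses them. Groups hold 3 to 6 mice, and depth limits genes of few counts most.

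Values by day are given for members called at 1 or more days or in the average, and values by library or range for those called at 2 or more days. Outside this rule, ranges are also given for members called at 1 day, such as Adam19, and for Adamtsl4. Values by day are also given for Adamts7 and Adamts8, which were not called. From the inhibitor, partner, and substrate lists, genes called at 3 or 4 days are named, and others named were chosen after their values were seen. Alternatives were DESeq2 1.42.0, other scaling, filters, and dispersion, all 40 libraries, only the groups of the day, a number range covariate, and leaving out each library. Some results that involve withheld items are not reported here.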

Additional observations from a re-analysis of the deposited data

Results flagged for a closer look

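In 5 of 70 groups of 4 to 6 libraries tested, over the 10 genes called at 2 or more days, 1 library lay apart from the rest of its group by Dixon's criterion, which chance meets in about 1 in 20 groups. For Adamtsl2, WT library 8 of day 6 had a log2 CPM of 2.49 against 2.25 to 2.26 in the rest, and HNKO library 36 of day 12 had 3.2 against 3.91 to 4.31. For Adamts2, HNKO library 13 of day 12 had 4.54 against 3.19 to 3.68, and WT library 14 of day 12 had 3.67 against 2.64 to 2.91. For Adam8, WT library 41 of day 21 had -1.7 against -0.51 to -0.07. Their causes were not tested.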

How the results depend on the processing

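The day 3 count of 5 called members was 3 without a filter on low counts, 2 with only the groups of the day, 8 with DESeq2 (1 of them lower), and 1 with all 40 libraries, where 1.6%, 2.42%, 7.03%, and 1.66% of all genes were called in place of 4.66%. With the size factors of DESeq2 in edgeR, and with the edgeR 4 dispersion, it was 6, of which 5 were higher and 1 lower (4.76% and 4.74% of all genes). With all 40 libraries the counts of days 6 and 12 were 10 and 4 in place of 16 and 10 (6.61% and 3.12% of all genes in place of 12.8% and 7.82%), and with at least 10 counts in every library the count of day 12 was 6 of 26 members tested (8.35% of all genes). With fewer members tested under that filter, low genes could not be called, and the cause of the other shifts was not tested. Leaving out 1 library gave 2 to 10 called members at day 3 (2 without HNKO 2 or 23 or WT 5, 24, or 25, and 10, with 1 lower, without HNKO 22, when 8.24% of all genes were called), 11 to 17 at day 6 (11 without HNKO 29, when 5.58% of all genes were called, and 17 without HNKO 30 or 31, at 10.6% and 15%), 5 to 10 at day 12 (5 without WT 15, when 4.21% of all genes were called, and 6 without HNKO 11, 12, or 13 or WT 33), 0 to 8 at day 21 (0 without HNKO 37, when 0.0627% of all genes were called), and 21 to 24 in the average. In the average, the share of all genes called ran from 28.7% to 37.5% when 1 library was left out. The averaged count was 20 to 24 under the alternatives run for it, where 17.6% (no filter) to 39.1% (at least 10 counts in every library, 26 members tested) of all genes were called. The interaction stayed at 0 members under every alternative run. Over the members' called values and all alternatives, 1483 of the values kept direction and call, 119 kept direction but lost the call, and none reversed. Most of these values belong to the average, which rarely lost its call. Of the 37 calls at single days, 16 held in every fit that left out 1 library, as did 21 of the 22 averaged calls. No paired analysis was possible because the library numbers are not shared between groups. Genes of few counts, such as Adamts16 and Adamts17, are limited by depth, day 21 by its 3 HNKO libraries, and the values of whole liver by the mixture of cells.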
